A study of Mus musculus with 18 samples.

Results

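The mRNAs of the enzymes and binding proteins that write, erase and read DNA methylation were followed in differentiating neural precursor cultures of the mouse. The 9 genes were Dnmt1, Dnmt3a, Dnmt3b, Tet1, Tet2, Tet3, Uhrf1, Mbd2 and Mbd3. Each probe set of the array that the platform annotation assigns to 1 of these symbols and to no other gene was taken, which gave 22 of 45101 probe sets. Of the 22 probe sets, 15 reached a mean signal of 100 in at least 1 group and were tested. Those 15 comprised 3 of 3 for Dnmt1, 4 of 5 for Dnmt3a, 1 of 4 for Tet1, 2 of 2 for Tet2, 2 of 2 for Uhrf1, 2 of 2 for Mbd2 and 1 of 1 for Mbd3. Neither of the 2 Dnmt3b probe sets nor the 1 Tet3 probe set was bright enough.

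The cells came from neurospheres, floating clusters of neural precursors, grown from the ganglionic eminences of C57BL/6 embryos and then plated for differentiation. All groups shared the same serum-containing medium. Cultures were treated with 50 nM trichostatin A (TSA), an inhibitor of class I and II histone deacetylases, with 10 ng/ml recombinant BMP2, a secreted ligand that favors astrocyte formation in these cells, or were left as controls. The arrays covered TSA for 24 h (4 arrays), BMP2 for 24 h (2), control at 24 h (6), TSA for 6 h (2), BMP2 for 6 h (2) and control at 6 h (2). The cultures are mixed populations, and in such bulk RNA fewer cells of a type cannot be told apart from less RNA per cell. The labels do not say whether replicate arrays came from separate cultures, so all errors measure only the spread between these samples.

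In mammals, methyl groups are placed on cytosines, mostly in CpG dinucleotides. Dnmt3a and Dnmt3b set new marks, while Dnmt1 copies existing marks onto the daughter strand after replication, guided there by Uhrf1, which recognizes hemimethylated sites. The Tet proteins oxidize 5-methylcytosine and so start its removal. Mbd2 binds methylated CpG and recruits the NuRD complex, a nucleosome remodeler that itself contains histone deacetylases. Mbd3 is the alternative NuRD subunit and, in mammals, binds methylated DNA poorly.

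The promoters of these genes differ in their CpG content, while methylation and binding at them were not measured. RefSeq promoter windows on GRCm38, reaching from 250 bases before to 50 bases after a start site, were at hand for 8 of the 9 genes, with 13 windows in all. Their CpG counts ran from 2 to 57, and 5 of the 13 windows exceeded the 90th percentile of 31 found over 32851 mouse windows, whose median was 7. Dnmt3a windows 1, 2 and 3 held 46, 47 and 18 CpG, windows 1 and 2 overlapping, and the Tet2 window held 57. A link of CpG content to the fold changes was not tested. The first Dnmt3a window (chr12:3806730-3807029, plus strand) belongs to the member with the largest fold change at 6 h of TSA. It is shown with each CpG in capitals.
Dnmt3a: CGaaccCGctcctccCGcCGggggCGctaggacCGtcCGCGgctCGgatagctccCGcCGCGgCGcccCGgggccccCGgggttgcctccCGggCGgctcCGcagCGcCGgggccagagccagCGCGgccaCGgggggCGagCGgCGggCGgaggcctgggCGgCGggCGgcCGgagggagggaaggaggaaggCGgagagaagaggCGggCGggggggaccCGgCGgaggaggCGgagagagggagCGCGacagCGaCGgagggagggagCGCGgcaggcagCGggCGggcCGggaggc
The promoters of Dnmt1 and Uhrf1, whose products act together at the replication fork, were searched on both strands for the E2F-type motifs TTTCCCGC, TTTGGCGC, TTTCGCGC and TTTGCCGC, since E2F factors act on S phase genes. A match was found in 2 of the 13 windows, the third Dnmt1 window (chr9:20952574-20952873, minus strand) with 2 matches and the second Uhrf1 window (chr17:56304063-56304362, plus strand) with 1 match, and in 2.26% of all windows. The matches are in capitals, and each is a match of letters only.
Dnmt1: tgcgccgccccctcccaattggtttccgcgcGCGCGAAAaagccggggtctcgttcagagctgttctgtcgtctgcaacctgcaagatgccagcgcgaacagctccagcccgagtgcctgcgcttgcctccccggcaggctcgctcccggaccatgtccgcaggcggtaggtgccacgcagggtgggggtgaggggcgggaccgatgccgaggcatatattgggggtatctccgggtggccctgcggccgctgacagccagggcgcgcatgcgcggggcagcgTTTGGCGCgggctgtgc
Uhrf1: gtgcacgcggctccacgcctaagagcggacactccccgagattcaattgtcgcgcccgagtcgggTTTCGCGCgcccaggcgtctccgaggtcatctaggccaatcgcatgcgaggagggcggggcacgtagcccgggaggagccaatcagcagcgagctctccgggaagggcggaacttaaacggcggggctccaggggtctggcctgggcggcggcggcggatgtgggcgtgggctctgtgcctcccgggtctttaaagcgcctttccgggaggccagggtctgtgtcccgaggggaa

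Across the 18 arrays the median deposited signal ranged from 35.43 to 41.59, and replicate arrays correlated with a Pearson r of 0.963 to 0.994 across probe sets. All 6 neural progenitor markers exceeded a signal of 100 in every group, and none of the 5 microglia markers did in any group. Xist, the RNA of the inactive X chromosome, stood at 693 to 2100 on 4 arrays, both BMP2 24 h arrays and control 24 h replicates 5 and 6, and at 18.7 to 76.6 on the other 14. In a fit that also held the 6 groups, 20% of the tested probe sets differed between high and low Xist arrays. That contrast rests on the 24 h controls, 2 high and 4 low, the only group with both kinds. Since every BMP2 24 h array was of the high kind and every TSA array of the low kind, results of the members at 24 h are also given with a term for high Xist where a call is lost or gained under it, and for some further values.

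TSA lowered Dnmt3a, both Tet genes that could be tested and Mbd3, and BMP2 left most of the members without a call. Here a call is a limma test with a Benjamini-Hochberg adjusted p below 0.05, run over 19498 probe sets. This main fit does not use the replicate numbers. Results with them as a block are given for some members and in the closing section. At 24 h of TSA, 6 of 15 member probe sets were called, 5 lower and 1 higher, where 35.2% of all tested probe sets were called and 18.7% were called lower. At 6 h of TSA, 5 of 15 were called, all lower, where 22.4% of all tested probe sets were called and 10.4% were called lower. At 24 h of BMP2, 1 of 15 was called, against 16.5% of all tested probe sets, and with the Xist term 0 of 15 were called, against 9.67% of all. At 6 h of BMP2, limma called 0 of 15 (also 0 at an unadjusted p below 0.05), against 1.46% of all. With the Xist term limma called 4 of 15 at 24 h of TSA and 6 of 15 at 6 h, against 33.7% and 28.6% of all. At 6 h, where all arrays had low Xist signal, the term leaves the fold changes as they are and alters only their errors. The arrays of TSA and control did not overlap in 1 of 15 probe sets at 24 h and in 11 of 15 at 6 h, where this held for 20.7% and 75.1% of all tested probe sets. Thresholds modelled on those of the study (more than 2-fold and a difference above 100, with an unadjusted limma p below 0.1 standing in for its confidence limit) were met by 1 of the 22 probe sets at 24 h of TSA, 3 at 6 h of TSA and 0 in both BMP2 comparisons, against 3.47%, 4.14%, 3.63% and 0.891% of all 45101 at 24 h of TSA, 6 h of TSA, 24 h of BMP2 and 6 h of BMP2. The median log2 fold change of the 15 probe sets was -0.52 at 24 h of TSA and 0.30 at 24 h of BMP2, where the median of all tested probe sets was -0.02 and 0.00. At 6 h it was -0.10 with TSA, where that of all tested probe sets was 0.01. Probe sets of 1 gene count separately in these medians. The 0.30 was the value of the dimmer Uhrf1 probe set, which averaged 37.9 at 24 h of BMP2 and 25.6 in controls. The -0.10 was that of a dim Dnmt3a probe set, which averaged 17.5 at 6 h of TSA and 21.2 in controls. That probe set and 1 more of Dnmt3a reached 100 only at 24 h of BMP2, with means of 123 and 101. The -0.52 was the value of the brightest Dnmt1 probe set, which was not called (limma adjusted p = 0.0919). With the Xist term that probe set was at -0.22. No shift of the family can be read from the -0.52, the 0.30 or the -0.10.

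**Figure D1:**
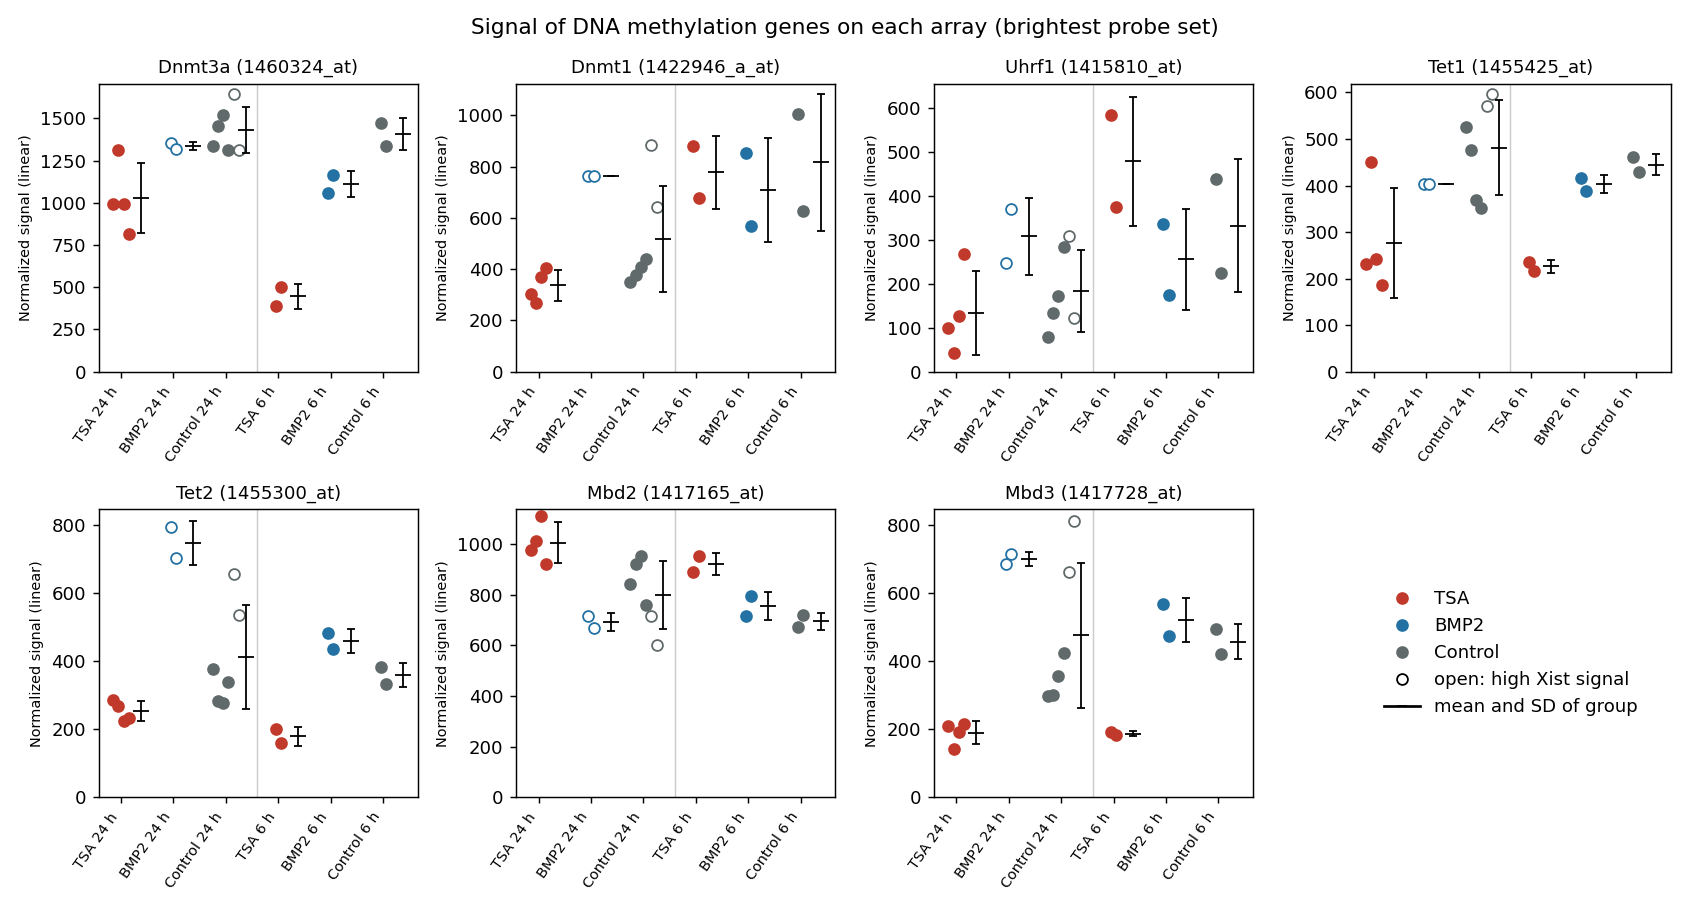
Normalized signal (linear axis) on each of the 18 arrays for the brightest probe set of the 7 genes that could be tested. Points are arrays, open points are the 4 arrays of high Xist signal, and the black bars give the mean and SD of a group. The 2 TSA 6 h arrays lie below every other array for Dnmt3a, at 391 and 499, and for Mbd3 all 6 TSA arrays lie between 143 and 216.

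**Figure D2:**
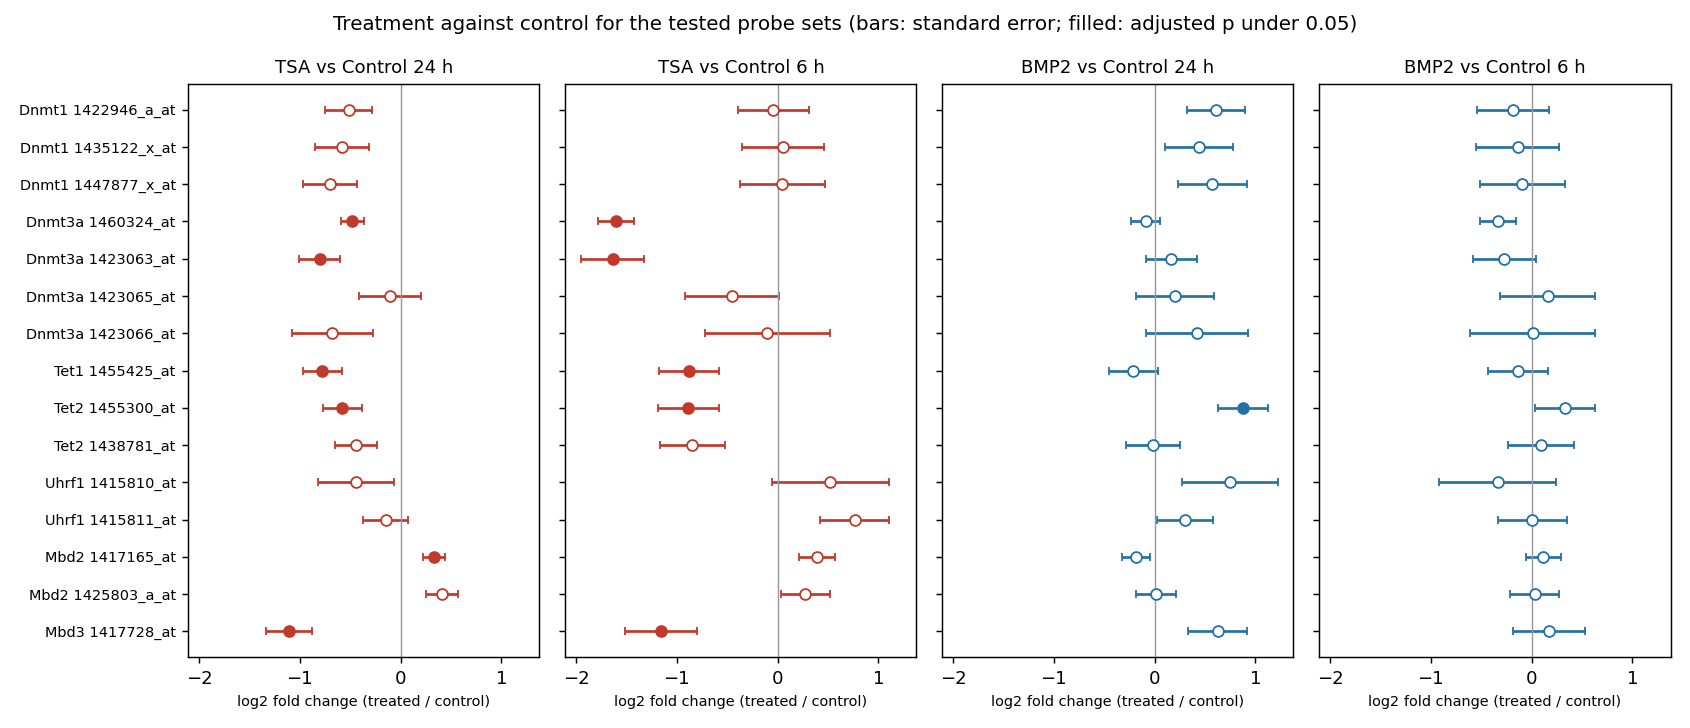
Log2 fold change (treated over control) of the 15 tested probe sets at each time, with bars for the standard error and filled symbols for an adjusted p below 0.05. Filled symbols are seen for 6 probe sets at 24 h of TSA, 5 at 6 h of TSA, 1 at 24 h of BMP2 and 0 at 6 h of BMP2.

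Among the de novo writers, Dnmt3a (chromosome 12, 3801559 to 3914443 on GRCm38) had the largest log2 fold changes of the tested probe sets of the family at 6 h of TSA. Its brightest probe set, 1460324_at, read 994, 1314, 992 and 814 at 24 h of TSA, against 1334, 1456, 1522, 1311, 1642 and 1314 in the 24 h controls. After 6 h of TSA it read 391 and 499, against 1474 and 1339 in the 6 h controls. The groups were far apart at 6 h, while at 24 h TSA replicate 2 reached into the range of the controls. The 24 h means were 1028 ± 208 with TSA (SD, n = 4) and 1430 ± 135 in controls (SD, n = 6), a log2 fold change of -0.48 (SE 0.12, limma adjusted p = 0.0047). The 6 h means were 445 ± 76.4 with TSA and 1406 ± 95.5 in controls (SD, n = 2 each), a 3.16-fold lower signal and a log2 fold change of -1.60 (SE 0.18, limma adjusted p = 3.9e-05).

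The reduction of Dnmt3a was smaller at 24 h than at 6 h. The difference between the 2 effects was itself tested and came to 1.12 on the log2 scale (SE 0.21, limma adjusted p = 0.0056). It was the only 1 of the 15 member probe sets called for this difference, where 9.79% of all probe sets were called. The second bright probe set, 1423063_at, averaged 465 ± 115 at 24 h of TSA and 851 ± 258 in controls (log2 fold change -0.80, SE 0.20, limma adjusted p = 0.0057). At 6 h it averaged 240 ± 60.0 with TSA and 807 ± 111 in controls (-1.64, SE 0.31, limma adjusted p = 0.0017). Both TSA calls held for both probe sets with the Xist term, under which 1423063_at was at -0.55 at 24 h (limma adjusted p = 0.0137). With the replicate block 1460324_at was at -0.46 and 1423063_at at -0.55 at 24 h of TSA (limma adjusted p = 0.0052 and 0.0013). The difference between the times in 1423063_at was 0.84 (SE 0.37, limma adjusted p = 0.168) and was called only with the Xist term (1.08, limma adjusted p = 0.0195), where 2 of 15 were called, against 12.8% of all.

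The remaining Dnmt3a probe sets were dim. Probe set 1423065_at averaged 83.4 ± 79.0 at 24 h of TSA and 78.7 ± 29.0 in controls, with 1 TSA array at 202 and the other 3 between 38.3 and 48.0. Probe set 1423066_at spanned 11.9 to 198 over the 18 arrays and was called in none of the treatment comparisons, and 1423064_at did not exceed 67.5 on any array. BMP2 brought no call for Dnmt3a. Its brightest probe set averaged 1337 ± 24.5 at 24 h of BMP2 and 1430 ± 135 in controls, a log2 difference of -0.09 with a 95% interval of -0.40 to 0.22, and at 6 h the difference was -0.33 with an interval of -0.71 to 0.05.

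Dnmt3b (chromosome 2), the other de novo methyltransferase, was too dim to test. Its probe set 1449052_a_at read 25.4, 33.7, 38.0 and 43.0 at 24 h of TSA, against 31.6 to 67.2 in the controls. At 6 h it read 74.0 and 63.8 with TSA, 34.1 and 35.6 with BMP2 and 37.3 and 32.1 in controls. The 2 TSA arrays at 6 h were thus the highest of that time, at signals below the minimum of 100. The other probe set, 1418351_a_at, spanned 20.4 to 63.0 over all arrays. At 6 h it read 36.9 and 38.1 with TSA, 23.6 and 24.2 with BMP2 and 27.2 and 28.3 in controls. The TSA arrays were again the highest of that time, at signals below 100. TSA and control arrays did not overlap in 75.1% of all tested probe sets at 6 h.

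Dnmt1 (chromosome 9), the maintenance methyltransferase, varied widely among the 24 h controls. Its probe set 1422946_a_at read 302, 270, 368 and 404 at 24 h of TSA, 763 and 764 at 24 h of BMP2 and 349, 379, 407, 438, 883 and 643 in the 24 h controls. The controls fell into the 4 low Xist arrays, at 349 to 438, and the 2 high Xist arrays, at 643 and 883, and the BMP2 arrays lay between those 2 values. TSA against control gave a log2 fold change of -0.52 (SE 0.23, limma adjusted p = 0.0919), and -0.22 with the Xist term (limma adjusted p = 0.358). The dimmer probe sets 1435122_x_at and 1447877_x_at gave -0.58 and -0.70 (limma adjusted p = 0.102 and 0.0561). With the replicate numbers as a block, which pair TSA and control arrays at 24 h, 1422946_a_at was at -0.22 and past the threshold (limma adjusted p = 0.0493). Probe set 1447877_x_at was then also called lower (-0.42, limma adjusted p = 0.0184), and 1435122_x_at was not (-0.27, limma adjusted p = 0.138). With the block and the Xist group together, 1422946_a_at was at an adjusted p of 0.0993 in limma, while 1447877_x_at was still called lower (-0.42, limma adjusted p = 0.013). BMP2 against control gave 0.61 (SE 0.29, limma adjusted p = 0.162), which was 0.02 with the Xist term and was called without control 24 h replicate 5 (0.77, limma adjusted p = 0.0303).

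At 6 h Dnmt1 read 878 and 677 with TSA, 852 and 566 with BMP2 and 1005 and 628 in controls. In each of the 3 groups replicate 1 was the higher array. TSA differed from control by -0.04 with a 95% interval of -0.80 to 0.71, and BMP2 by -0.19 with an interval of -0.94 to 0.57, both from the fit without a replicate block. Each had a standard error of 0.35 in that fit and of 0.12 with the block, at the same fold changes. The controls themselves averaged 517 ± 208 at 24 h and 817 ± 267 at 6 h, a log2 difference of -0.67 (limma adjusted p = 0.189), which was -0.96 and past the threshold with the Xist term (limma adjusted p = 0.0138). Between the 2 control groups limma called 0 of the 15 member probe sets (2 at an unadjusted p below 0.05), against 4.45% of all, and with the Xist term 2 of 15, against 8.49% of all. The second of these was Uhrf1 1415811_at, lower at 24 h (-1.05, limma adjusted p = 0.0412, and 0.0589 without the term). Its control means of 25.6 at 24 h and 81.7 at 6 h both lay below 100.

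Uhrf1 (chromosome 17), the partner that brings Dnmt1 to hemimethylated CpG, also spread widely within groups. Probe set 1415810_at read 99.2, 42.3, 126 and 268 at 24 h of TSA, 246 and 370 at 24 h of BMP2, and 79.0, 134, 171, 284, 310 and 122 in the 24 h controls. At 6 h it read 583 and 376 with TSA, 337 and 174 with BMP2 and 439 and 226 in controls. The TSA and control arrays overlapped at both times, and replicate 1 was again the higher one in all 3 groups at 6 h. TSA against control gave -0.44 at 24 h with a 95% interval of -1.24 to 0.35, and 0.52 at 6 h with an interval of -0.71 to 1.75. The dimmer probe set 1415811_at read 169 and 142 at 6 h of TSA, against 112 and 51.8 in controls, a log2 fold change of 0.77 that missed the threshold (limma adjusted p = 0.124).

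S phase and proliferation genes also varied between the arrays, in part as Dnmt1 and Uhrf1 did. Their level was taken as the mean log2(signal + 32) of 10 tested genes, among them Mki67, Top2a and the Mcm helicase subunits. At 6 h this level was 9.17 and 8.52 with TSA, 9.55 and 8.82 with BMP2 and 9.75 and 8.86 in controls, replicate 1 being the higher in each group, as for Dnmt1 and Uhrf1. At 24 h of TSA it was 8.15, 7.43, 7.42 and 8.92, and replicate 4, the highest, also had the highest Uhrf1 and Dnmt1 signals of its group. Other arrays ran differently. Replicate 3 of TSA at 24 h had the lowest level, 7.42, with a Dnmt1 signal of 368, control 24 h replicate 6 had a level of 8.10 with a Dnmt1 signal of 643, and the BMP2 24 h arrays had levels of 8.43 and 9.06 with Dnmt1 signals of 763 and 764. Of the 10 genes, 2 were called lower at 24 h of TSA, Mcm5 (-1.78, limma adjusted p = 0.0045) and Top2a (-1.41, limma adjusted p = 0.038, and 0.0744 with the Xist term), and 0 in the other 3 comparisons of a treatment with control, where 18.7% of all tested probe sets were called lower at 24 h of TSA. The median log2 fold change of the 10 was -0.13 at 24 h of TSA and -0.48 at 6 h, where that of all genes was -0.02 and 0.02. From the 6 h to the 24 h controls the median was -0.82, where that of all genes was 0.06, with 0 of the 10 called. The part of cell division in the Dnmt1 and Uhrf1 signals was not tested.

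**Figure D3:**
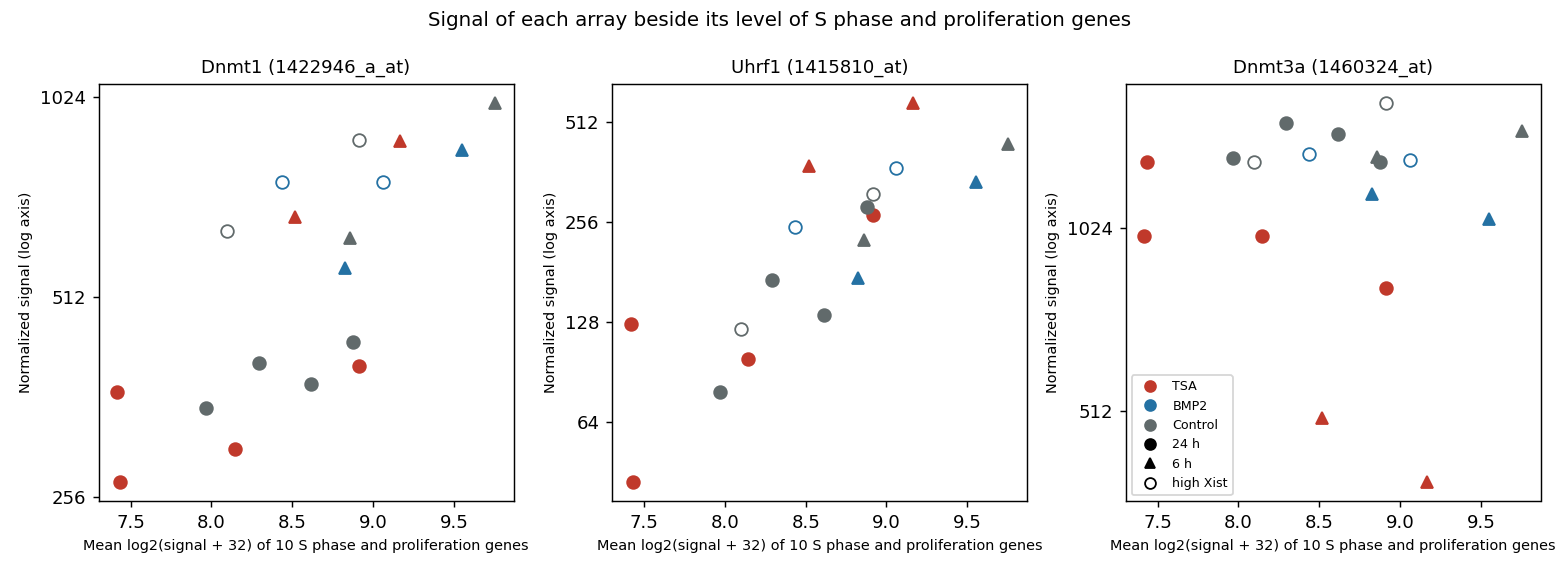
Normalized signal (log axis) of Dnmt1, Uhrf1 and Dnmt3a against the mean log2(signal + 32) of 10 S phase and proliferation genes, 1 point per array, triangles for 6 h and circles for 24 h, open symbols for high Xist. The 6 h control with the highest proliferation level, 9.75, had the highest Dnmt1 signal, 1005, while the TSA 6 h arrays have the lowest Dnmt3a signals, 391 and 499, at proliferation levels of 9.17 and 8.52.

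Of the erasers, Tet1 (chromosome 10) was lower with TSA at both times. Probe set 1455425_at read 231, 451, 242 and 185 at 24 h of TSA, against 526, 475, 369, 352, 571 and 597 in the 24 h controls. All TSA arrays but replicate 2 lay below all controls. The means were 277 ± 118 with TSA and 482 ± 103 in controls, a log2 fold change of -0.78 (SE 0.19, limma adjusted p = 0.0053), and -0.63 with the Xist term (limma adjusted p = 0.0196). With the replicate block the fold change was also -0.63 (limma adjusted p = 0.0048). At 6 h it read 237 and 216 with TSA, against 460 and 428 in controls, without overlap, as in 75.1% of all tested probe sets (-0.88, SE 0.30, limma adjusted p = 0.0432). BMP2 arrays read 404 and 404 at 24 h and 416 and 389 at 6 h, within or just below the range of the controls, and BMP2 against control at 24 h gave -0.21 (limma adjusted p = 0.588), and -0.50 with the Xist term (limma adjusted p = 0.335). The other 3 Tet1 probe sets were not tested, the brightest of them reaching 133 on 1 array.

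Tet2 (chromosome 3) moved in opposite directions under the 2 treatments at 24 h. Probe set 1455300_at read 287, 268, 225 and 234 at 24 h of TSA, 795 and 703 at 24 h of BMP2 and 377, 285, 276, 339, 657 and 537 in the 24 h controls. Of the TSA arrays 3 of 4 lay below all controls, and both BMP2 arrays lay above all of them. TSA against control gave -0.58 (SE 0.19, limma adjusted p = 0.0298), BMP2 against control gave 0.88 (SE 0.24, limma adjusted p = 0.0225) and TSA against BMP2 gave -1.46 (SE 0.26, limma adjusted p = 0.00059). Both high Xist controls were also high in Tet2, by 0.84 on the log2 scale over the low Xist controls (limma adjusted p = 0.0013). With the Xist term, TSA gave -0.30 (limma adjusted p = 0.0721) and BMP2 gave 0.32 (limma adjusted p = 0.328), and with the replicate block the TSA value was called (-0.30, limma adjusted p = 0.0134). The TSA call was lost without control replicate 6, TSA replicate 3 or TSA replicate 4 (limma adjusted p of 0.0576 to 0.0776), and the BMP2 call without either BMP2 array (0.212 and 0.108).

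At 6 h Tet2 read 200 and 160 with TSA, 484 and 435 with BMP2 and 384 and 334 in controls. The TSA arrays lay below the controls, and TSA and control arrays did not overlap in 75.1% of all tested probe sets at 6 h. The BMP2 value was not called. TSA against control gave -0.89 (SE 0.30, limma adjusted p = 0.0447), BMP2 against control 0.33 (95% interval -0.31 to 0.97) and TSA against BMP2 -1.22 (limma adjusted p = 0.0079). Its second probe set, 1438781_at, averaged 54.4 ± 30.5 with TSA and 119 ± 16.8 in controls at 6 h (-0.85, limma adjusted p = 0.0747). In BMP2 cultures at 24 h this probe set averaged 143 ± 17.6, against 148 ± 40.7 in controls, a difference of -0.01 with a 95% interval of -0.58 to 0.55, so the 2 Tet2 probe sets disagreed there. Tet3 (chromosome 6) stayed between 1 and 9.15 on all 18 arrays on its single probe set, which gives no level for this gene.

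Among the readers, Mbd3 (chromosome 10, 80392539 to 80399531) was lower in TSA cultures at both times. Its only probe set, 1417728_at, read 209, 143, 192 and 216 at 24 h of TSA, against 297, 299, 357, 425, 661 and 812 in the 24 h controls. No TSA array reached the lowest control, a separation found in 20.7% of all probe sets and in 1 of the 15 of this family. The means were 190 ± 33.0 with TSA and 475 ± 213 in controls, 2.50-fold lower, with a log2 fold change of -1.11 (SE 0.23, limma adjusted p = 0.0016). With the Xist term the fold change was -0.76 (limma adjusted p = 0.00059), and the 2 high Xist controls read 661 and 812 and the 4 others 297 to 425. With the replicate block the fold change was also -0.76 (limma adjusted p = 0.00016).

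At 6 h Mbd3 read 192 and 182 with TSA, 566 and 475 with BMP2 and 494 and 421 in controls. TSA against control gave -1.15 (SE 0.36, limma adjusted p = 0.0297) and TSA against BMP2 gave -1.33 (limma adjusted p = 0.0132). BMP2 cultures at 24 h read 685 and 715, above 5 of the 6 controls. BMP2 against control was 0.63 (SE 0.29, limma adjusted p = 0.155), was called without control replicate 6 (0.79, limma adjusted p = 0.0247), and turned to -0.06 with the Xist term.

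Mbd2 was the 1 member called higher at 24 h of TSA. Probe set 1417165_at read 977, 1013, 1112 and 920 at 24 h of TSA, 717 and 667 at 24 h of BMP2 and 843, 921, 953, 760, 717 and 602 in the 24 h controls. The TSA arrays lay in or above the upper part of the controls. The log2 fold change was 0.33 (SE 0.11, limma adjusted p = 0.032), a ratio of means of 1.26. The call was lost with the Xist term (0.20, limma adjusted p = 0.107), with median scaling of the arrays (0.20, limma adjusted p = 0.225), and without control replicate 4 or 5 or TSA replicate 1, 2 or 3 (limma adjusted p of 0.0527 to 0.0946), and with the replicate block it held (0.20, limma adjusted p = 0.0242). At 6 h it read 889 and 952 with TSA, 718 and 794 with BMP2 and 672 and 718 in controls, a TSA effect of 0.39 (SE 0.18, limma adjusted p = 0.127). With the Xist term it was called (limma adjusted p = 0.039) at the same 0.39. No 6 h array had high Xist signal, so only the standard error changed, to 0.13. The dimmer probe set 1425803_a_at averaged 245 ± 48.7 at 24 h of TSA and 178 ± 47.2 in controls (0.41, limma adjusted p = 0.0537; called with the replicate block, 0.46, limma adjusted p = 0.0104).

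The 6 h calls rested on 2 arrays a group. When any 1 of the 4 TSA and control arrays was left out, the calls of Tet1, Tet2 and Mbd3 at 6 h were lost (limma adjusted p up to 0.193, 0.243 and 0.160), while the log2 fold changes stayed between -0.83 and -0.94, between -0.75 and -1.02 and between -1.05 and -1.26. Without the filter on dim probe sets these 3 calls were also lost (limma adjusted p = 0.0798, 0.0829 and 0.0534). Dnmt3a kept its call in each fit with 1 array left out (limma adjusted p of 0.00059 to 0.0015).

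**Figure D4:**
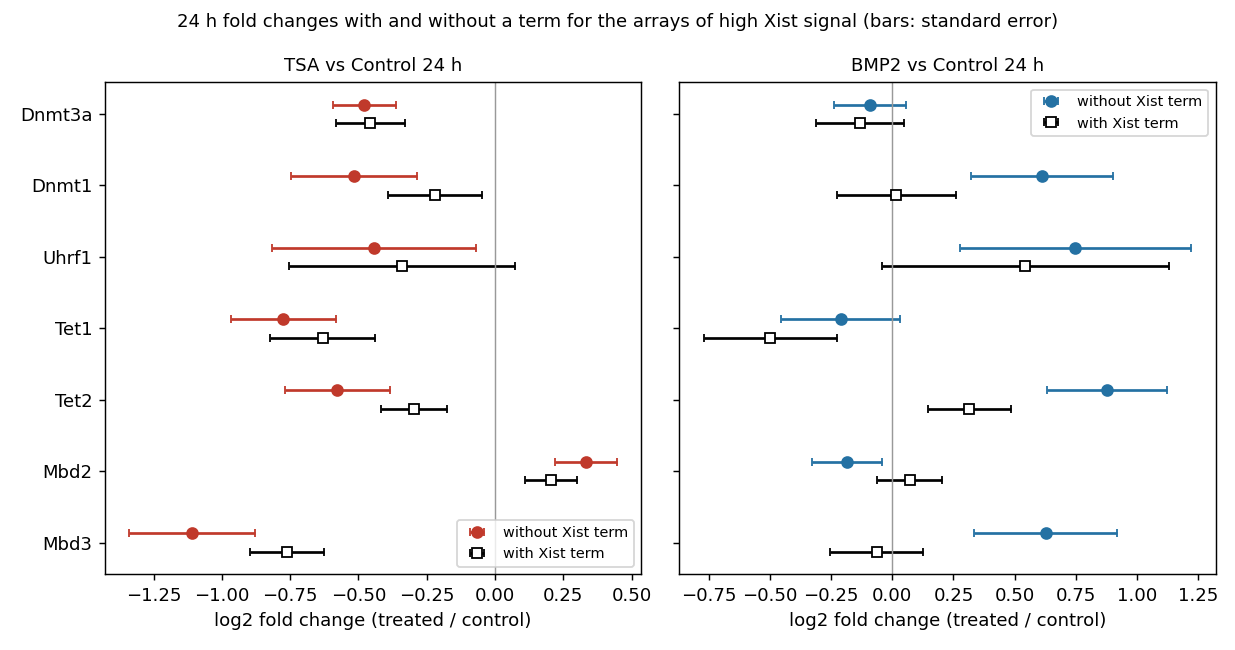
Log2 fold change at 24 h for the brightest probe set of each gene without (filled) and with (open) a term for the arrays of high Xist signal, TSA on the left and BMP2 on the right, with bars for the standard error. The BMP2 value of Mbd3 is 0.63 without and -0.06 with the term, while Dnmt3a under TSA is -0.48 and -0.46.

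TSA and BMP2 were also compared directly. At 24 h, 7 of the 15 probe sets were called, 6 lower and 1 higher with TSA, against 38.1% of all. They were all 3 Dnmt1 probe sets (-1.13, -1.02 and -1.27), Dnmt3a 1423063_at (-0.97), Tet2 (-1.46), Mbd3 (-1.74) and, higher with TSA, Mbd2 (0.52). At this time all BMP2 arrays had high and all TSA arrays low Xist signal, and with the Xist term, which then rests on the controls alone, 0 of 15 were called, against 12.9% of all. Without BMP2 replicate 1 or 2 the count was 2. At 6 h, where all arrays had low Xist signal, 5 of 15 were called, all lower with TSA, against 24.2% of all and 11.4% called lower. They were both bright Dnmt3a probe sets (-1.27 and -1.37), both Tet2 probe sets (-1.22 and -0.94) and Mbd3 (-1.33), and the count was 2 to 4 with 1 array left out. The effect of BMP2 did not pass the test of a change between the times in any member (limma, 0 of 15, also 0 at an unadjusted p below 0.05), against 0.621% of all.

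The genes whose 6 group means ran most like those of a member were listed over 10262 genes, with Pearson's r across the 6 means, a measure that reaches high values by selection. Dut, which keeps uracil out of DNA, was the closest to Dnmt1 (r = 0.991). Hnrnpr was the closest to Dnmt3a (0.998), Katnal1 to Tet1 (1.00), Lin9, a subunit of a cell cycle regulatory complex, to Tet2 (0.995), Pgm2l1 to Uhrf1 (0.997), Ifnar1 to Mbd2 (0.996) and Timp4 to Mbd3 (0.999).

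Partners and neighbors of the pathway moved in part. Their counts stand beside the shares of all tested probe sets called, which were 35.2% at 24 h of TSA, 22.4% at 6 h of TSA, 16.5% at 24 h of BMP2 and 1.46% at 6 h of BMP2. Of 12 NuRD subunits, all tested, TSA lowered 3 at 24 h and raised 0, where 18.7% of all tested probe sets were called lower, with a median log2 fold change of -0.09 where that of all genes was -0.02. They were the remodeler Chd3 (96.1 ± 24.4 with TSA and 359 ± 44.6 in controls, -1.62, limma adjusted p = 4.1e-07), Cdk2ap1 (-0.36, limma adjusted p = 0.0017) and the deacetylase Hdac2 (-0.38, limma adjusted p = 0.0019). At 6 h of TSA, 2 were lower, Cdk2ap1 (-1.46, limma adjusted p = 3.1e-06) and Chd3 (-1.40, limma adjusted p = 0.00026), and 1 was higher, Hdac1 (0.87, limma adjusted p = 0.00057), with a median of -0.24 where that of all genes was 0.02. BMP2 raised 1 at 24 h, Mta3 (0.99, limma adjusted p = 0.00095), and 0 at 6 h.

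Of 10 partners of the writers, 9 were tested. At 24 h of TSA, 5 were lower and 1 was higher, where 35.2% of all tested probe sets were called and 18.7% were called lower, with a median of -0.35 where that of all genes was -0.02. Among the lower ones were the replication clamp Pcna (1643 ± 186 with TSA and 2661 ± 420 in controls, -0.68, limma adjusted p = 0.00049), the histone H3K27 methyltransferase Ezh2 (-0.47, limma adjusted p = 0.0039) and the H3K9 methyltransferase Ehmt1 (-0.55, limma adjusted p = 0.0076). None of the 9 was called at 6 h of TSA or in either BMP2 comparison.

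Of 10 further readers of CpG, 8 were tested. Zbtb38, a zinc finger protein that binds methylated DNA, was lower with TSA at 24 h (111 ± 20.3 with TSA and 188 ± 28.4 in controls, -0.62, limma adjusted p = 0.0018) and at 6 h (35.2 ± 2.80 with TSA and 106 ± 22.8 in controls, -1.03, limma adjusted p = 0.0021). At 24 h of TSA 3 of the 8 were lower, Mbd6 among them (-0.46, limma adjusted p = 0.022), and 1 was higher, the thymine glycosylase Mbd4 (0.49, limma adjusted p = 0.0255, and 0.0634 with the Xist term), where 35.2% of all tested probe sets were called. The median of the 8 was -0.13 at 24 h and -0.27 at 6 h of TSA, and 0 were called under BMP2.

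Of 15 genes of active demethylation and base excision repair, 11 were tested. Gadd45b, a stress-induced gene linked to demethylation in neurons, was raised by BMP2 at 24 h (614 ± 172 with BMP2 and 64.5 ± 30.3 in controls, 2.77, limma adjusted p = 3.5e-06) and at 6 h (276 ± 7.02 with BMP2 and 38.3 ± 16.4 in controls, 2.15, limma adjusted p = 0.002). Parp1, the strand break sensor, was lower at 24 h of TSA (847 ± 75.9 with TSA, -0.71, limma adjusted p = 0.0003) and of BMP2 (551 ± 2.87 with BMP2, -1.30, limma adjusted p = 2.1e-05), against 1419 ± 245 in controls. The cytidine deaminase Apobec1 (1.26, limma adjusted p = 0.00054) and Gadd45g (0.73, limma adjusted p = 0.0025) were higher at 24 h of TSA, and the uracil glycosylase Ung was higher at 6 h (1.15, limma adjusted p = 0.0262). In all, 3 genes were higher and 2 lower at 24 h of TSA, 1 higher and 2 lower at 6 h of TSA, 2 higher and 2 lower at 24 h of BMP2 and 1 higher at 6 h of BMP2, against 35.2%, 22.4%, 16.5% and 1.46% of all tested probe sets in the same order. With the Xist term 3 were higher and 1 lower at 24 h of BMP2, against 9.67% of all. The median of the 11 was 0.00 at 24 h and -0.04 at 6 h of TSA, and -0.06 at 24 h and 0.01 at 6 h of BMP2.

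Of 10 genes that supply or steer the writers and erasers, 7 were tested. Ahcy, which clears the methyltransferase product S-adenosylhomocysteine, was lower with TSA at 24 h (413 ± 14.7 with TSA and 801 ± 63.6 in controls, -0.90, limma adjusted p = 5.6e-06) and at 6 h (475 ± 88.9 with TSA and 875 ± 141 in controls, -0.84, limma adjusted p = 0.0011). Cxxc5, a CXXC domain protein that binds CpG, was higher with BMP2 at 24 h (4489 ± 73.9 with BMP2 and 1168 ± 259 in controls, 1.94, limma adjusted p = 2.6e-06) and at 6 h (4331 ± 43.3 with BMP2 and 1353 ± 174 in controls, 1.66, limma adjusted p = 0.00086). Cxxc4, which in mouse cells binds Tet2, was higher at 24 h of TSA (1.12, limma adjusted p = 0.00061), and Idh1, which makes the Tet cosubstrate 2-oxoglutarate, was lower (-0.39, limma adjusted p = 0.00046). The counts were 3 higher and 2 lower at 24 h of TSA, 1 lower at 6 h of TSA, 2 higher and 1 lower at 24 h of BMP2 and 1 higher at 6 h of BMP2, beside the same 35.2%, 22.4%, 16.5% and 1.46% of all tested probe sets. With the Xist term 1 was higher and 1 lower at 24 h of BMP2, against 9.67% of all. The median of the 7 was -0.04 at 24 h and -0.29 at 6 h of TSA, and 0.10 at 24 h and -0.07 at 6 h of BMP2.

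Germline genes that promoter methylation silences in somatic cells did not reach the minimum. All 11 genes of that list, among them Dazl, Ddx4 and Sycp3, stayed below a group mean of 100, the highest being 98.2 for Sycp3, so none was tested. The filter thus left a change of such genes unexamined in the main fit.

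Cell type markers shifted beside these results. The summed signal of 7 oligodendrocyte lineage markers was 14131 to 20440 at 24 h of TSA, 11133 to 11788 at 24 h of BMP2 and 25005 to 31043 in the 24 h controls. That of 6 neuron markers was 3015 to 3682 at 24 h of TSA and 4599 to 6532 in controls, and 3522 to 4466 at 6 h of TSA and 6318 to 7781 in controls. Not all neuron markers fell, since at 24 h of TSA 3 of the 6 were called lower and 1 higher. Of all tested probe sets 35.2% were called there and 18.7% were called lower. At 6 h of TSA 3 of the 6 were called lower and 0 higher, where 10.4% of all tested probe sets were called lower. That of 5 ganglionic eminence markers was 664 to 1287 at 6 h of TSA and 2508 to 3438 in controls. That of 6 astrocyte markers was 12101 to 13860 at 24 h of BMP2, 17041 to 23695 at 24 h of TSA and 14671 to 22255 in the 24 h controls. With BMP2 3 of the 6 were called lower, where 16.5% of all tested probe sets were called in either direction. With TSA 2 of the 6 were called lower at 24 h, where 18.7% of all tested probe sets were. At 6 h of TSA the astrocyte sum was 10547 to 12108, against 15298 to 17484 in controls. Of the 6 astrocyte markers 3 were called lower there, where 10.4% of all tested probe sets were. The oligodendrocyte lineage sum was 21027 to 21092 at 6 h of TSA, against 30294 to 31925 in controls. The part of these shifts in the signals of the methylation genes was not tested.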

How the data were processed

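RNA of neurosphere cultures was hybridized to 18 Affymetrix Mouse Genome 430 2.0 arrays. The deposited values are linear signal intensities per probe set. MAS5 is named in the submitters' processing notes and dChip with rank-based normalization in the study's methods, and the sources used here do not settle which of them made the deposited intensities. Groups and replicate numbers come from the sample labels. All 18 arrays were brought to a common distribution by quantile normalization, a pseudocount of 32 was added, and log2 values were fitted in limma 3.58.1 (R 4.3.3) with 1 coefficient for each of the 6 groups and a mean-variance trend. Fold changes are on the log2(signal + 32) scale, which understates the change of dim genes. Probe sets with a mean below 100 in every group were left out, and p-values were adjusted over the 19498 others within each comparison. The precision is limited by the number of arrays.

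A gene is given in full by its probe set of highest mean signal. Probe sets ending in _x_at or _s_at may bind other transcripts. Of 45101 probe sets, 34958 had 1 gene in the platform annotation, 932 several and 9211 none. Of the pathway lists, up to 3 genes per list and comparison with the smallest adjusted p are named. The members and lists were chosen with earlier results of these data known. No replicate pair shared more than 0.641% identical signals. The replicate numbers pair TSA and control arrays at 24 h, since the deviations of same-numbered arrays from their group means correlated with r of 0.318 to 0.584 in all 4 pairs. The main fit does not use this pairing, and its 24 h controls include replicates 5 and 6, which have no TSA array of the same number. The alternatives were the Xist term, the replicate block, other scalings, pseudocounts and filters, fits of single comparisons, and arrays left out in turn. The procedure was tested on simulated data. Promoter windows come from RefSeq tables of GRCm38, and proteins were not used here.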

Additional observations from a re-analysis of the deposited data

Results flagged for a closer look

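Of 30 combinations of a tested member probe set and a group of 4 or 6 arrays, 2 held an array far from the rest, where chance gives about 1 in 20. Dnmt3a probe set 1423063_at read 637 on TSA 24 h replicate 2, against 430 on the next array of that group. Dnmt3a probe set 1423065_at read 202 on TSA 24 h replicate 1, against 48.0 on the next. The TSA effect on Dnmt3a (1460324_at) differed between the times by 1.12 on the log2 scale (SE 0.21, limma adjusted p = 0.0056), with TSA minus control at -0.48 at 24 h and -1.60 at 6 h.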

How the results depend on the processing

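The count of called member probe sets at 24 h of TSA was 6 and stayed between 4 and 9 except with criteria modelled on the study's (more than 2-fold and a difference above 100, with an unadjusted limma p below 0.1 standing in for its confidence limit), which gave 1. At 6 h of TSA the count of 5 became 3 with median scaling or with those criteria, 2 without a filter on dim probe sets, and 8 when only the compared groups were fitted. At 24 h of BMP2 the count of 1 became 0 with the Xist term, with only the compared groups, with the criteria modelled on the study's and with the mean of a gene's probe sets. The counts with the mean of a gene's probe sets were 3 for TSA against BMP2 at 6 h (main 5) and 0 for the TSA effect between times (main 1). The Xist term gave 0 for TSA against BMP2 at 24 h (main 7), 2 for the TSA effect between times and 2 for the controls at 24 h against 6 h (main 0).

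With the replicate block the counts were 9 at 24 h of TSA, 8 at 6 h of TSA, 9 at 24 h of BMP2, 9 for TSA against BMP2 at 6 h, 7 for the BMP2 effect between times, 4 for the TSA effect between times and 3 for the controls. With the block and the Xist group they were 8 at 6 h of TSA, 0 at 24 h of BMP2, 8 and 2 for TSA against BMP2 at 6 h and 24 h, 3 for the TSA effect and 2 for the controls. At 6 h the deviations of same-numbered arrays correlated with r of 0.564 for TSA and control, 0.705 for BMP2 and control and 0.632 for TSA and BMP2. There were only 2 pairs, which give the same r by construction, so a pairing at 6 h is not settled. The BMP2 arrays at 24 h did not follow the controls of the same number (r of 0.003 and -0.13), so there the number is no pairing. The block called Uhrf1 1415811_at higher at 6 h of TSA (0.77, limma adjusted p = 0.0163, and 0.03 with the Xist group as well) and gave Dnmt1 1422946_a_at a standard error of 0.116 there. Uhrf1 1415811_at was tested only because its TSA 6 h mean passed the filter, so this call is no support for a rise. With 1 array left out the counts were 2 to 3 at 6 h of TSA, 4 to 8 at 24 h of TSA, 0 to 2 at 24 h of BMP2, 2 to 4 and 2 to 8 for TSA against BMP2 at 6 h and 24 h, 1 for the TSA effect and 0 to 1 for the controls.

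The sign turned in fold changes that were not called. Dnmt1 at 6 h of TSA was 0.00778 on the deposited signals and -0.37 to 0.28 with 1 array left out. At 6 h of BMP2, Dnmt1 ran from -0.51 to 0.14 and Uhrf1 from -0.77 to 0.10 with 1 array left out. With the Xist term, with or without the block, Mbd2 at 24 h of BMP2 was 0.0714 and Mbd3 -0.0639. The causes were not tested. Median scaling moved the median log2 fold change of all probe sets to -0.10 at 24 h of TSA, to -0.12 for the TSA effect between times and to 0.11 for the controls. With it Dnmt1 was called at 24 h of TSA (-0.64, limma adjusted p = 0.0443). Over all probe sets the block raised the calls to 684 at 6 h of BMP2 (main 284), 8000 at 6 h of TSA (main 4369) and 9098 at 24 h of BMP2 (main 3212), and the Xist term lowered the last to 1885 and TSA against BMP2 at 24 h to 2512 (main 7421). Genes whose group means all lie below 100, Dnmt3b and Tet3 among them, were left out of the main fit by the chosen filter.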
